A study of Mus musculus with 8 samples.

Results

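The Notch receptors, their ligands, the nuclear effector and the first target genes of the pathway were examined in LT-HSCs, the long-term repopulating hematopoietic stem cells, of the E14.5 fetal liver (FL). The set was chosen by name and held 10 genes of the 55487 in the count table, of which 20610 were tested. It consisted of the 4 receptors *Notch1*, *Notch2*, *Notch3* and *Notch4*, the ligands *Jag1*, *Jag2* and *Dll4*, the DNA-binding effector *Rbpj*, and the targets *Hes1* and *Hey1*. All 10 passed the filter of at least 10 reads summed over the samples. For *Hey1*, with 59 reads in all, this left a level close to the floor of the assay.

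Bulk RNA-seq had been made from 8 samples of 500 cells each, which came from mouse embryos at E14.5 that were *IκBα* WT (3 samples), HET (3) or KO (2). KO embryos lacked both copies and HET embryos 1 copy of *Nfkbia*, which encodes IκBα, the inhibitor of NF-κB. The line was the germline targeted knockout tm1Bal, so the allele was missing from every cell of the embryo and of its liver, and embryos came from timed matings of HET parents. The study also crossed this line with *Gfi1:tomato* reporter mice, and which embryos carried the reporter is not given in the sources used here. No agent was given. Cells were depleted of lineage-positive cells and sorted as LSK CD48- CD150+. The samples WT1, WT2 and HET1 were male and labelled as total RNA. The other 5, which include WT3 and both KO samples, were female and labelled as polyA RNA. Sex and the RNA label thus coincided in all 8 samples and cannot be told apart, although the methods describe a single library protocol for all of them. No KO sample was male. The question was whether Notch pathway expression in LT-HSCs differed when IκBα was lost.

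Notch receptors are single-pass membrane proteins that are activated by ligands of the Jagged and Delta-like families on a neighboring cell. Ligand binding lets ADAM proteases and then γ-secretase cut the receptor, and the freed intracellular domain enters the nucleus, where it turns RBPJ from a repressor into an activator of *Hes* and *Hey* genes. *Notch1* is known for its part in the emergence of the first HSCs from the endothelium of the embryonic aorta, and *Notch2* for a role in blood stem cells of the liver and of the regenerating bone marrow. In the liver, Jagged and Delta-like ligands are also made by endothelial and stromal cells.

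At a depth of 17895973 to 21720972 reads counted on genes per sample, 3 reads stood for 0.125 to 0.178 CPM (read counts scaled to the library size with TMM factors), the smallest level the depth can show. This floor covers counting error only, since the reads carried no molecular identifiers. *Nfkbia* had 1 read in KO1 and 0 in KO2, against 243 to 1621 reads in the 6 WT and HET samples, as the labels state. The libraries WT3 and HET3 stood apart, low in the summed markers of the sorted population and high in the summed genes of liver parenchyma. The CPM of 10 LT-HSC markers (among them *Kit*, *Ly6a*, *Slamf1*, *Procr*, *Mecom*, *Hlf*, *Fgd5*, *Meis1* and *Ptprc*), summed per sample, was 284 in WT3 and 210 in HET3. It was 577 and 690 in HET2 and HET1, 1151 and 1801 in KO2 and KO1, and 1905 and 1988 in WT1 and WT2. *Kit* did not share this, at 148 and 170 CPM in WT3 and HET3 against 135 to 212 CPM in the other WT and HET samples. *Ly6a*, which encodes the sort marker SCA1, had 0 reads in HET3, and all 10 markers were below both KO samples in WT3 and in all 3 HET samples. The summed CPM of 8 hepatoblast and hepatocyte genes was 1287 in WT3 and 625 in HET3, against 12.03 to 161 in the other 4 WT and HET samples and 17.4 and 239 in KO1 and KO2. Of these genes, *Hnf4a* ran the other way. It had 2.40 and 1.54 CPM in WT3 and HET3 and 2.76 to 3.30 CPM in the other WT and HET samples. KO1 and KO2 had 9.69 and 5.02 CPM. The sum of 7 erythroid genes was 541 to 8636 CPM in WT and HET, highest in HET1, against 543 CPM in KO1 and 2133 CPM in KO2. The part of these differences in the results for the Notch genes was not tested, and the edgeR fits and the correlations with marker levels were therefore also computed without WT3 and HET3. HET2 is then the only female WT or HET sample in the edgeR fits. All other values rest on all samples of their groups. In bulk samples, fewer cells of a type and less RNA per cell cannot be told apart.

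The regulatory sequences below come from the RefSeq promoter table on GRCm38.p6, each running 250 bases before to 50 after a transcript's start, and are shown because the comparison is between cells with and without the NF-κB inhibitor and because RBPJ acts through a known DNA word. Of the 10 genes, 8 matched a promoter entry, *Hes1* and *Hey1* being the exceptions. The motifs searched on both strands were the NF-κB consensus and TGGGAA, the core of the RBPJ site. The NF-κB consensus was found in 4.51% and TGGGAA in 25.6% of all 32851 promoters of this length. Among the 8 genes, the NF-κB consensus occurred in *Notch2* and TGGGAA in *Rbpj*, and neither occurred in the windows of *Notch1*, *Notch3*, *Notch4*, *Jag1*, *Jag2* and *Dll4*. Capitals mark the matches. The *Notch2* stretch is chr3:98013388-98013467 (plus strand), where the match starts 112 bases before the start site and reads on both strands. The 2 *Rbpj* stretches are chr5:53590185-53590214 and chr5:53590269-53590298 (plus strand), each of which overlaps 1 annotated exon, with a match on the plus strand at -149 and one on the minus strand at -65. The *Dll4* stretch, chr2:119325664-119325783 (plus strand), ends at the base before its start site and holds neither motif.
Notch2: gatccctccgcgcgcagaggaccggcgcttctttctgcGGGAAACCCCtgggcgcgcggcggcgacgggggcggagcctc
Rbpj, distal: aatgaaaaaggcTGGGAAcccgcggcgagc
Rbpj, proximal: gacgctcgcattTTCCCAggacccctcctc
Dll4: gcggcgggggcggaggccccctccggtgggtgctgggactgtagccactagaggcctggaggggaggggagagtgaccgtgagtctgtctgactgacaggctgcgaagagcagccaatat
A match describes the letters of these windows only. No binding was measured in these samples.

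None of the 10 Notch genes was called in KO when set against WT and HET together. With edgeR's quasi-likelihood test (TMM scaling, sex and genotype in the model, call at a Benjamini-Hochberg adjusted p under 0.05 with a log2 fold change beyond 1 in either direction), 0 of 10 genes passed, as did 0% of all 20610 genes. The lowest adjusted p of all genes in this edgeR fit was 0.0862. The deleted gene *Nfkbia*, with 1 and 0 reads in KO1 and KO2, was thus not called either. The absence of a call for a Notch gene therefore does not show an unchanged level. At an unadjusted p under 0.05, *Jag2* and *Dll4* were higher in KO, 2 of 10 genes against 15.7% of all genes, and 0 of 10 were lower against 9.48% of all genes. Of the 10 estimates, 8 were positive and their median log2 fold change was 0.88, while the median of all genes was 0.13. With sex in the model and no male KO sample, these estimates set KO against the female WT and HET samples. Without WT3 and HET3, this female reference is HET2 alone, so that fit sets both KO samples against a single library. DESeq2 with apeglm shrinkage, which called 6.5% of all genes as higher in KO, called 1 of the 10, *Jag2*, at a shrunken log2 fold change of 1.57 (adjusted p = 0.0416). Without WT3 and HET3, 0 of the 10 genes had an unadjusted p under 0.05 with a higher level in KO, against 4.18% of all genes. For no gene of the set did both KO samples lie above all 6 others (3.05% of all genes did) or below them (1.79% of all genes).

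**Figure D1:**
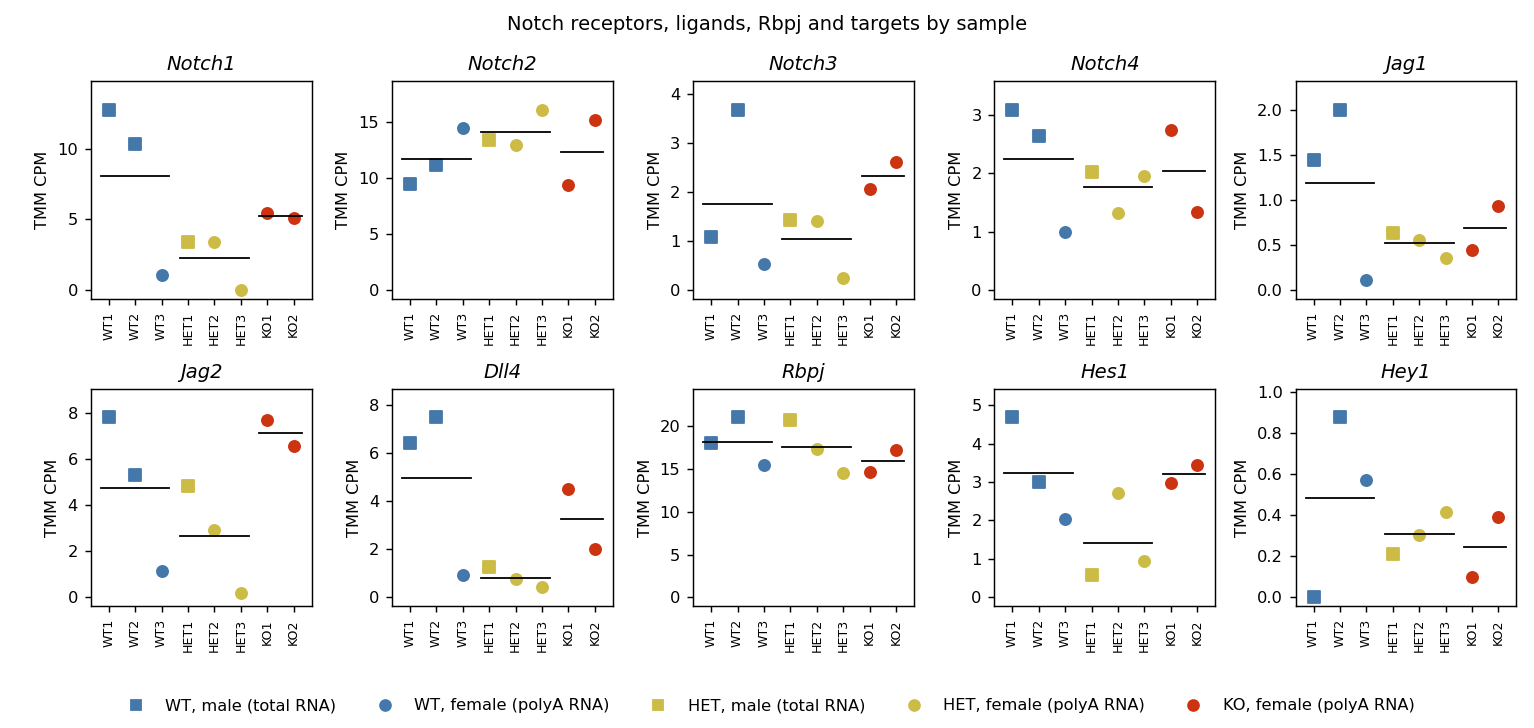
Level of the 10 Notch genes (TMM-scaled CPM, y axis) in each of the 8 samples (x axis), colored by genotype, squares for male and circles for female samples, with a bar at each genotype's mean. For *Notch1* and *Dll4* the KO points lie between the high male WT samples and the low WT3 and HET3, for *Jag2* they lie above all samples but WT1, and *Notch2* and *Rbpj* stay within 9.40 to 16.1 and 14.53 to 21.0 CPM.

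Among the receptors, *Notch1* (ENSMUSG00000026923, chr2:26457903-26516663 on GRCm38, minus strand) was the most variable. Its level was 12.8, 10.3 and 1.04 CPM in WT1, WT2 and WT3, 3.40, 3.38 and 0 CPM in HET1, HET2 and HET3, and 5.48 and 5.07 CPM in KO1 and KO2. Both KO samples lay below the male WT samples and above WT3 and all HET samples, so the groups overlapped. Its reads numbered 273 in WT1, 20 in WT3 and 0 in HET3, while *Notch2* had 202 reads in WT1 and 278 and 271 reads in WT3 and HET3. The log2 fold change of *Notch1* in KO was 1.83 ± 1.20 (SE, edgeR, adjusted p = 0.354), and the exact two-sided permutation test of log2 CPM gave p = 0.714 for 2 samples against 6, where the smallest p this design allows is 0.0714. Without sex in the model it was 0.03 ± 1.38, and without WT3 and HET3 it was 0.61 ± 0.81.

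*Notch2* (ENSMUSG00000027878, chr3:98013527-98150361, plus strand), the receptor with the highest level per length in every sample but WT1, was nearly flat. It was at 9.45, 11.1 and 14.48 CPM in WT, at 13.4, 12.9 and 16.1 CPM in HET, and at 9.40 and 15.2 CPM in KO. The KO samples spanned almost the whole range of the others. The highest sample was 1.71-fold above the lowest, and the log2 fold change was -0.24 ± 0.31 (SE, edgeR, adjusted p = 0.646). Its highest level was in HET3, the library without *Notch1* reads.

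*Notch3* and *Notch4*, known above all from mural and endothelial cells, were measured at low levels. *Notch3* (ENSMUSG00000038146, chr17:32120820-32166852, minus strand) ranged from 0.24 CPM in HET3 to 3.68 CPM in WT2, with 2.06 and 2.61 CPM in KO1 and KO2. Its log2 fold change was 1.67 ± 0.84 (SE, edgeR, adjusted p = 0.243). *Notch4* (ENSMUSG00000015468, chr17:34564268-34588503, plus strand) ranged from 0.99 CPM in WT3 to 3.09 CPM in WT1, with 2.74 and 1.33 CPM in KO and a log2 fold change of 0.52 ± 0.58 (SE, edgeR, adjusted p = 0.592). For both genes the KO samples lay inside the range of the other samples. The summed CPM of 12 endothelial markers, which *Notch4* accompanies in vessels, was 38.1 to 344 in WT and HET and 185 and 285 in KO2 and KO1.

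The balance of the main receptors differed between libraries more than counting error. *Notch1* reads made up 57.5% of the *Notch1* and *Notch2* reads in WT1 (273 of 475, 95% exact Clopper-Pearson interval 52.9 to 62.0%) and 48.1% in WT2 (43.7 to 52.6%). The share was 6.71% in WT3 (4.15 to 10.2%), 20.3% in HET1 (16.0 to 25.2%) and 20.7% in HET2 (16.5 to 25.6%). In HET3 it was 0 of 271 reads, which allows a share of up to 1.11% when 3 reads are taken as the floor and of up to 1.35% by the Clopper-Pearson interval. KO1 had 36.8% (31.4 to 42.5%) and KO2 25.1% (20.9 to 29.5%). These intervals cover counting error only. Both KO samples thus lay between the HET and the male WT samples, with HET1 and HET2 just under KO2 and their intervals overlapping its own.

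**Figure D2:**
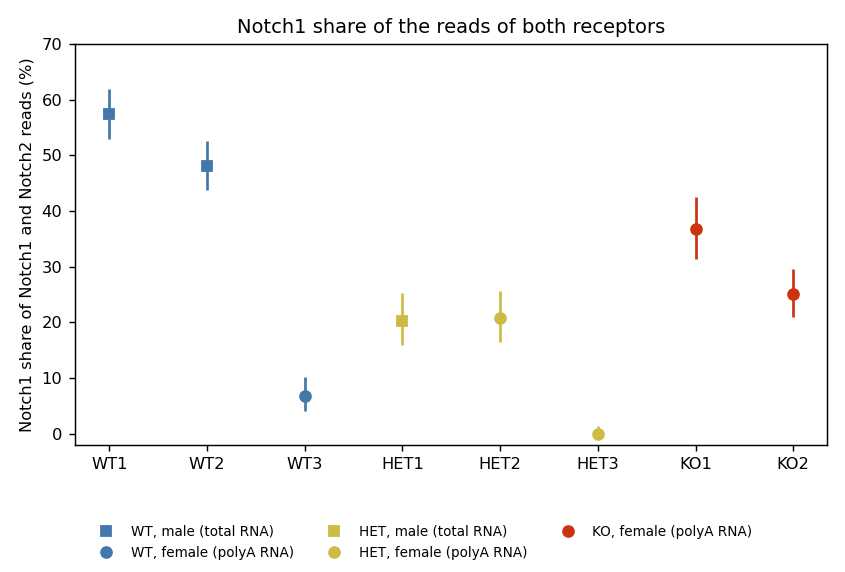
Share of *Notch1* among the reads of *Notch1* and *Notch2* (percent, y axis) in each sample (x axis), colored by genotype, squares male and circles female, with 95% exact binomial intervals. The share runs from 0 in HET3 and 6.71% in WT3 to 57.5% in WT1, with KO1 at 36.8% and KO2 at 25.1%.

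Among the ligands, *Jag2* (ENSMUSG00000002799, chr12:112907819-112929776, minus strand) had the largest estimate of the 10 genes. It was at 7.81, 5.31 and 1.15 CPM in WT1, WT2 and WT3, at 4.84, 2.93 and 0.18 CPM in HET1, HET2 and HET3, and at 7.68 and 6.59 CPM in KO1 and KO2. The KO samples were above every sample but WT1, which reached 7.81 CPM. Its log2 fold change was 2.32 ± 0.84 (SE, edgeR, unadjusted p = 0.0233, adjusted p = 0.161), and the exact two-sided permutation test gave p = 0.214. The estimate was 0.94 ± 0.96 without sex in the model and 1.25 ± 0.59 (unadjusted p = 0.0717, edgeR) without WT3 and HET3. The 3 female WT and HET samples averaged 1.42 ± 1.39 CPM (SD, n = 3) and the 3 male ones 5.99 ± 1.60 CPM (SD, n = 3).

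*Dll4* (ENSMUSG00000027314, chr2:119325784-119335962, plus strand), the ligand known from arterial and tip endothelial cells, was at 6.41, 7.48 and 0.94 CPM in WT1, WT2 and WT3. HET1, HET2 and HET3 had 1.28, 0.76 and 0.42 CPM, and KO1 and KO2 had 4.50 and 2.02 CPM. The KO samples lay above WT3 and all HET samples and below the male WT samples. The log2 fold change was 2.20 ± 0.79 (SE, edgeR, unadjusted p = 0.0223, adjusted p = 0.160), against 0.17 ± 1.11 without sex in the model and 2.07 ± 1.23 without WT3 and HET3 (unadjusted p = 0.138, edgeR). The exact two-sided permutation test gave p = 0.500. With HET alone as the reference the estimate was 2.73 and with WT alone 1.15, the latter at an unadjusted edgeR p of 0.217. *Jag1* (ENSMUSG00000027276, chr2:137081456-137116644, minus strand), the ligand of liver vessels and bile ducts, stayed at or below 2.01 CPM, with 0.44 and 0.93 CPM in KO1 and KO2 and a log2 fold change of 1.01 ± 0.88 (SE, edgeR, adjusted p = 0.488) that was -0.31 without sex in the model.

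*Rbpj* (ENSMUSG00000039191, chr5:53466152-53657362, plus strand), through which all 4 receptors act, was the steadiest of the 10 genes. It was at 17.97, 21.0 and 15.4 CPM in WT, at 20.6, 17.3 and 14.53 CPM in HET, and at 14.6 and 17.2 CPM in KO. The KO samples lay inside the range of the others, and the highest sample was 1.44-fold above the lowest. The log2 fold change was 0.01 ± 0.22 (SE, edgeR, adjusted p = 0.985), and its sign turned under 12 of 21 alternatives, all between -0.28 and 0.28.

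The target *Hes1* (ENSMUSG00000022528, chr16:30064384-30067796, plus strand), a transcriptional repressor, was at 4.68, 3.01 and 2.03 CPM in WT1, WT2 and WT3. It was at 0.58, 2.72 and 0.95 CPM in HET1, HET2 and HET3, and at 2.99 and 3.44 CPM in KO1 and KO2. The KO samples were above the 3 HET samples and WT3, and below WT1. Its log2 fold change was 0.75 ± 0.81 (SE, edgeR, adjusted p = 0.578), and -0.26 with WT alone as the reference. *Hey1* (ENSMUSG00000040289, chr3:8663359-8667256, minus strand), a related repressor, had 0 to 21 reads per sample. It had at most 3 reads in WT1 and KO1, and with a log2 fold change of -0.79 ± 1.43 (SE, edgeR) no difference was detectable at this depth.

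Of the 10 genes, 5 (*Notch1*, *Notch3*, *Jag2*, *Dll4* and *Hes1*) had both KO samples above the 3 female WT and HET samples, as had 27.1% of all genes. The mean KO level was 3.58-fold the female reference mean for *Notch1*, 5.04-fold for *Jag2* and 4.64-fold for *Dll4*. Against all 6 WT and HET samples the same ratios were 1.02, 1.93 and 1.13. Both KO samples are female, so in the fit with sex the genotype estimate is set by the female reference. WT3 and HET3 are 2 of its 3 samples, and without them HET2 alone is left. For *Notch1* the estimate was 1.83 with all samples, and 1.83, 1.83 and 1.81 without WT1, WT2 or HET1. With the female samples alone, *Dll4* had an unadjusted edgeR p of 0.0205 and *Jag2* 0.0598, so 1 of 10 genes was higher in KO at an unadjusted p under 0.05 against 13.7% of all genes.

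**Figure D3:**
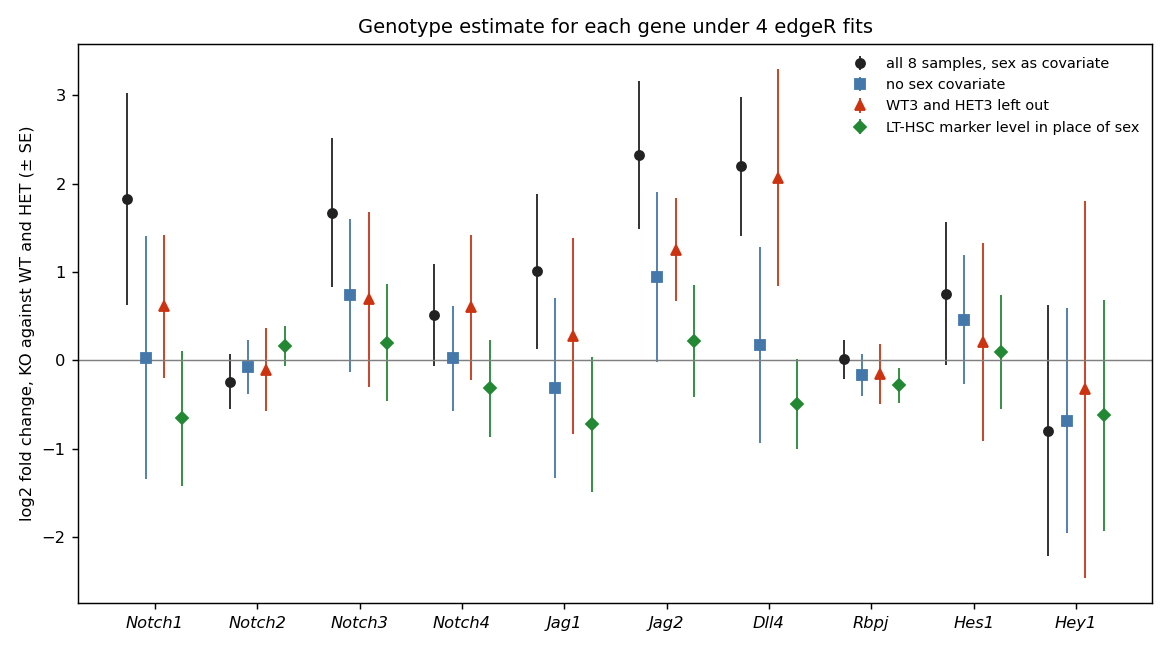
Log2 fold change of each of the 10 Notch genes (x axis) between KO and the WT and HET samples, with SE (y axis), under 4 edgeR fits. The estimates of *Notch1*, *Jag2* and *Dll4* are 1.83, 2.32 and 2.20 with sex in the model, 0.03, 0.94 and 0.17 without it, and 0.61, 1.25 and 2.07 without WT3 and HET3. Without WT3 and HET3, HET2 alone is the female reference. With sex in the model, the female WT and HET samples set the reference.

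The levels of 3 genes followed the summed LT-HSC markers over the 8 samples. The share of all genes that did so was not computed, so these relations do not set the 3 genes apart from others. The summed endothelial markers ran in nearly the same order. They went from 38.1 CPM in HET3 and 42.1 CPM in WT3 to 316 CPM in WT2 and 344 CPM in WT1. Not every marker of that list did so. *Plvap* was highest in HET3 (31.0 CPM), and *Stab1* and *Stab2* were highest in WT3 (3.33 and 4.01 CPM). The part of either list in these relations was not tested. For *Notch1*, Pearson's r between its log2 CPM and the log2 sum was 0.90 (exact permutation p = 0.00015, Benjamini-Hochberg adjusted over 10 relations 0.0015) and Spearman's rho was 0.98 (exact permutation p = 0.00040, adjusted 0.0020). *Dll4* had r = 0.94 (exact permutation p = 0.00064, adjusted 0.0032) and rho = 0.98 (exact permutation p = 0.00040, adjusted 0.0020). *Jag2* had r = 0.90 (exact permutation p = 0.0011, adjusted 0.0038) and rho = 0.86 (exact permutation p = 0.011, adjusted 0.036). Without WT3 and HET3, the samples farthest from the median sum, r over the remaining 6 was 0.88, 0.98 and 0.80. *Notch2* went the other way, with r = -0.80 (exact permutation p = 0.013, adjusted 0.027), rho = -0.74 (exact permutation p = 0.046, adjusted 0.057) and r = -0.70 without these samples. *Notch3* had r = 0.84 (exact permutation p = 0.014, adjusted 0.027) and rho = 0.74 (exact permutation p = 0.046, adjusted 0.057), but r was 0.38 without WT3 and HET3, so this relation rested on them. *Jag1* had r = 0.78 (exact permutation p = 0.024, adjusted 0.040) and rho = 0.83 (exact permutation p = 0.015, adjusted 0.038), and r was 0.56 without them. The remaining 4 genes had r from -0.39 to 0.65 (exact permutation, adjusted p from 0.13 to 0.34) and rho from -0.24 to 0.74 (exact permutation, adjusted p from 0.057 to 0.58). The male and female samples number 3 and 5, under the minimum of 6 set for a correlation. Among the 5 female samples, *Notch1* and *Jag2* had the same order as the marker sum (HET3, WT3, HET2, KO2, KO1), and *Dll4* had it but for WT3 and HET2, which changed places. With the log2 marker sum in place of sex in the edgeR fit (tried only once the data had been looked at), the log2 fold changes in KO were -0.66 for *Notch1*, 0.22 for *Jag2* and -0.49 for *Dll4*, and 0 of the 10 genes were higher at an unadjusted p under 0.05 (2.56% of all genes).

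**Figure D4:**
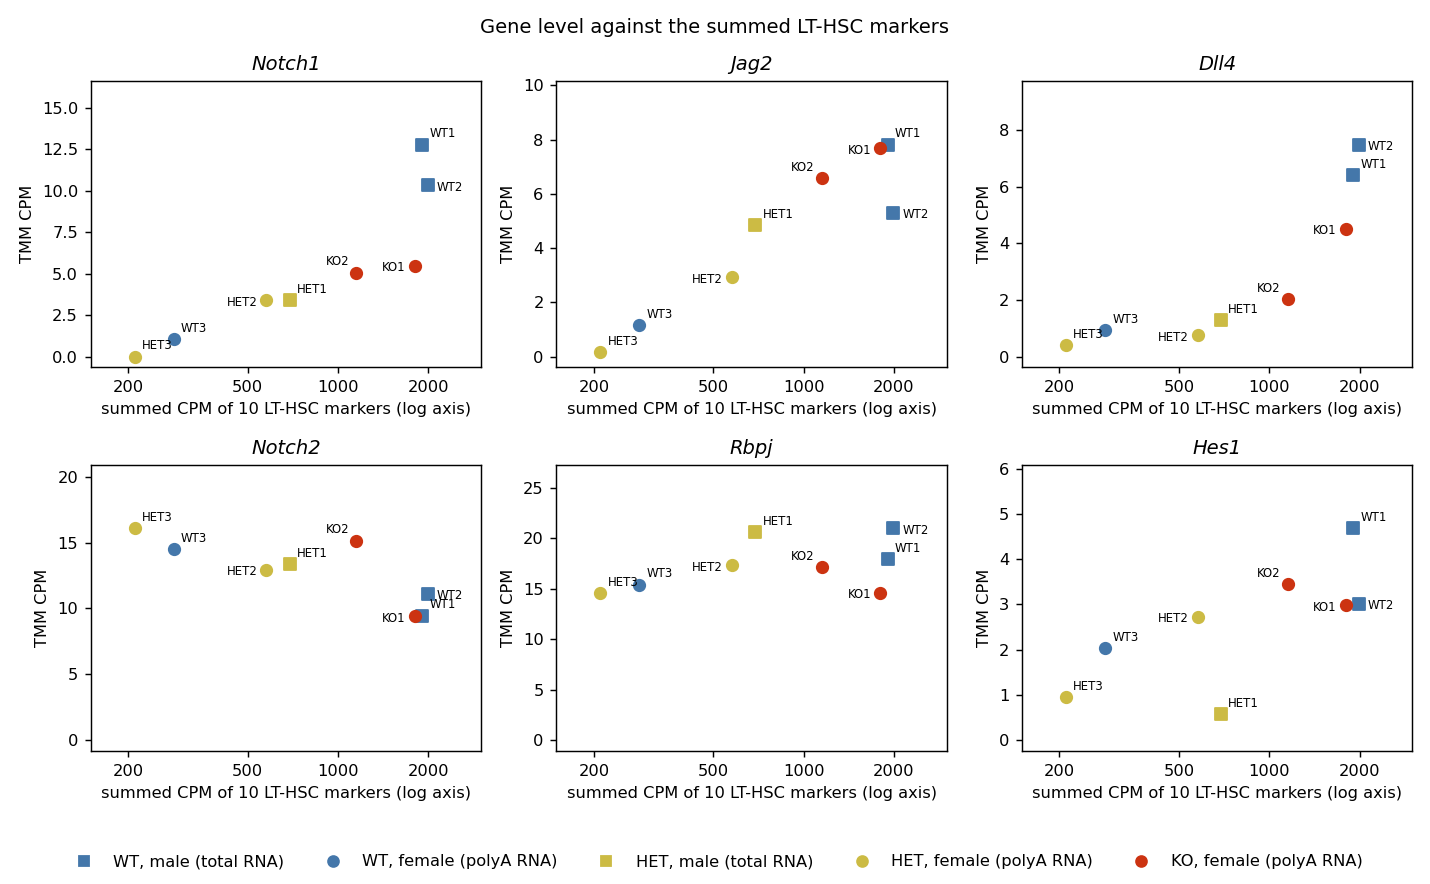
Level of 6 Notch genes (TMM-scaled CPM, y axis) against the summed CPM of 10 LT-HSC markers (x axis, log scale), 1 point per sample, colored by genotype, squares male and circles female. *Notch1*, *Jag2* and *Dll4* rise from HET3 and WT3 (sums of 210 and 284) to WT1 and WT2 (1905 and 1988), where for *Jag2* both KO samples exceed WT2, while *Rbpj* stays between 14.53 and 21.0 CPM.

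Levels were compared between genes as CPM per kb of merged exons. Ordered by the median over the 8 samples, *Hes1* (1.40 CPM per kb), *Rbpj* (1.35) and *Notch2* (1.22) came first, followed by *Jag2* (0.73), *Dll4* (0.43), *Notch1* (0.30), *Notch4* (0.25), *Notch3* (0.18), *Hey1* (0.11) and *Jag1* (0.10). No gene was above its next neighbor in all 8 samples, so neighbors in this order were not separated. The closest was *Dll4* over *Notch1*, in 7 of 8. In HET3 and WT3, *Notch2* took the first rank, whereas in WT1, KO1 and KO2 *Hes1* did, in HET1 and HET2 *Rbpj* did, and in WT2 *Dll4* did. *Notch1* ranked from the fifth place in WT1 and HET2 to the last in HET3.

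The pattern over the 8 samples most like that of *Notch1* among the 10 genes was *Jag2*, with Pearson's r of log2 CPM of 0.96, and each was the other's closest. *Dll4* was closest to *Notch1* (r = 0.83), *Notch3* to *Jag2* (0.86), *Notch4* to *Dll4* (0.69), *Jag1* to *Dll4* (0.71), *Rbpj* to *Jag1* (0.70) and *Hes1* to *Dll4* (0.64). *Notch2* and *Hey1* were closest to each other (0.62). Among all genes with a mean of at least 5 CPM, those most like *Notch1* were *Wfdc2* (0.998), *Sh3gl3* and *Gbp2* (both 0.997), and those most like *Hes1* were *Chpt1*, *Eid2b* (both 0.952) and *Alg14* (0.949). These are descriptions over 8 samples that share the marker gradient above.

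The other genes of the pathway were taken from 7 lists by role, with 72 genes in all, of which 64 were tested. With edgeR, 0 of the 64 were called in KO. At an unadjusted p under 0.05, 17 (26.6%) were higher and 1 (1.56%) was lower, against the 15.7% and 9.48% of all genes given above. Their median log2 fold change was 0.32, against 0.13 over all genes. The fit without WT3 and HET3 again had HET2 as its only female reference sample. Without WT3 and HET3, 6 of 63 (9.52%) were higher, against 4.18% of all genes, and 0 lower. With the marker sum in place of sex, 2 of 64 (3.12%) were higher, against 2.56% of all genes, and 0 lower.

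Among the 3 other ligands tested, 0 had an unadjusted p under 0.05, and *Dll1*, a canonical ligand, had at most 1 read in any sample. Of the 10 genes of receptor cleavage, 2 were higher and 1 lower, against 15.7% and 9.48% of all genes. *Furin*, the protease of the first cut, had 5.87 and 5.56 CPM in the KO samples, within the 1.96 to 9.78 CPM of the others, a log2 fold change of 1.41 ± 0.45 (SE, edgeR, adjusted p = 0.152). *Aph1c*, a γ-secretase subunit, had a log2 fold change of 2.14 ± 0.86 (adjusted p = 0.177). *Psen2*, a catalytic γ-secretase subunit, was lower, at 43.7 and 42.0 CPM in KO and 37.7 to 85.6 CPM in the others, by a log2 fold change of -0.85 ± 0.19 (adjusted p = 0.148). Its highest levels were in HET3 (85.6 CPM) and WT3 (82.0 CPM). Of the 5 genes that glycosylate the receptors, 1 was higher, the Fringe enzyme *Mfng* (1.73 ± 0.48, adjusted p = 0.148, edgeR), with 220 and 205 CPM in the male WT samples, 211 and 139 CPM in KO, and 35.9 to 87.3 CPM elsewhere.

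Of the 13 genes of ligand and receptor trafficking tested, 6 (46.2%) were higher at an unadjusted p under 0.05, and 2 without WT3 and HET3. The shares of all genes were 15.7% and 4.18%. *Neurl3*, of the Neuralized family of ubiquitin ligases, reached 109 and 122 CPM in the male WT samples and 105 and 65.2 CPM in KO, against 8.49 CPM in WT3 and 1.66 CPM in HET3. Its log2 fold change was 3.25 ± 0.82 (SE, edgeR, adjusted p = 0.148). The log2 fold changes of *Neurl1a*, of the same family, and of *Dtx3l*, of the Deltex family, were 2.31 ± 0.63 and 1.34 ± 0.36 (both adjusted p = 0.148). *Dtx1*, a known Notch target, had 0 reads in all samples.

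In the nucleus, 0 of 8 coactivators and 3 of 14 corepressors tested were higher, against 15.7% of all genes. *Tle2*, a corepressor of the Groucho family, reached 6.27 and 4.72 CPM in the male WT samples and 3.87 and 2.61 CPM in KO, against 0.16 CPM in WT3 and 0.12 CPM in HET3. Its estimate was 3.79 ± 0.67 on the log2 scale (SE, edgeR, adjusted p = 0.148). *Ctbp2*, also a corepressor, had a smaller estimate of 0.51 ± 0.19 (SE, edgeR, adjusted p = 0.163). Of 11 other target genes tested, 5 (45.5%) were higher, and 3 without WT3 and HET3, where the shares of all genes were 15.7% and 4.18%. *Gata2*, a transcription factor of HSCs, had 180 and 138 CPM in KO1 and KO2, close to the 140 and 148 CPM of WT1 and WT2, while the other 4 samples lay between 28.4 and 76.3 CPM. Its estimate was 2.21 ± 0.29 on the log2 scale (SE, edgeR, adjusted p = 0.148). The paper, which used DESeq2, reports both *Gata2* and *Neurl3* as significantly higher in KO. *Gata3*, a transcription factor of T cells and HSCs, had an estimate of 3.11 ± 0.89, and *Hes7*, which stayed at or below 1.003 CPM, had 4.75 ± 1.23 (both adjusted p = 0.148). *Hey2*, *Heyl*, *Ptcra*, *Hes3* and *Il2ra*, targets in other tissues or in T cells, had at most 3 reads in any sample.

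**Figure D5:**
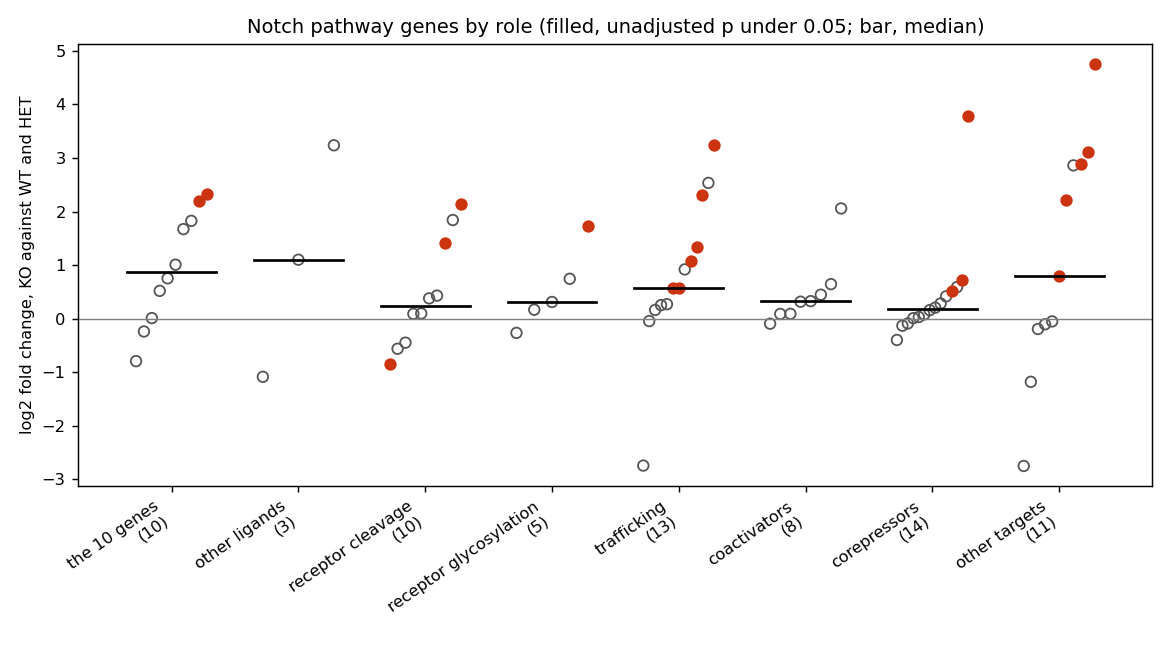
Log2 fold change between KO and the WT and HET samples (y axis, edgeR with sex in the model) for the 10 Notch genes and 7 lists of other pathway genes by role (x axis, number tested in brackets), filled where the unadjusted p was under 0.05, with a bar at each median. In all, 17 of the 64 other genes are filled above 0 and 1 is filled below it, and none was called after adjustment. With sex in the model, the female WT and HET samples set the reference.

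Between HET and WT, which differ by 1 copy of *Nfkbia*, 0 of the 10 genes and 0% of 19542 genes tested were called with edgeR, and at an unadjusted p under 0.05 0 of the 10 were higher (1.91% of all genes) and 0 were lower (1.95%). With the replicate number as a block, in a fit with 1 residual degree of freedom, 1 of the 10 was lower at an unadjusted p under 0.05, against 4.76% of all genes. This was *Notch1*, lower in HET in all 3 same-numbered comparisons, with a log2 fold change of -2.78 ± 0.98 (SE, edgeR, unadjusted p = 0.0316, adjusted p = 0.812). The numbers were not shown to mark pairs. Without the block, the lowest p was that of *Dll4*, at 4.94 ± 3.51 CPM in WT and 0.82 ± 0.43 CPM in HET (SD, n = 3 each, exact two-sided permutation p = 0.200), with a log2 fold change of -1.58 (edgeR, adjusted p = 0.919). *Hes1* was at 3.24 ± 1.34 CPM in WT and 1.42 ± 1.14 CPM in HET (SD, n = 3 each, exact two-sided permutation p = 0.200). With 3 samples in each group this test cannot go below 0.1. DESeq2 with apeglm called 14 genes, none of them among the 10. Without WT3 and HET3, the log2 fold changes in HET were -1.76 for *Notch1*, -2.44 for *Dll4* and -2.70 for *Hes1* (adjusted p = 0.0200, 0.0168 and 0.0272, edgeR), in a fit with 1 residual degree of freedom in which the genotype term sets the single male HET sample against the 2 male WT samples and 1929 genes were called.

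Male and female samples of WT and HET, which also differ in the RNA label, were compared in the same fit. With edgeR 0 of the 10 genes were called, against 0.0102% of all genes, and at an unadjusted p under 0.05 *Dll4* alone was higher in males (1 of 10 genes, against 11.1% of all genes) while 0 were lower (12.6%). The log2 fold change of *Dll4* was 2.01 (edgeR, adjusted p = 0.182). Males were above females without overlap for *Notch1*, *Notch4*, *Jag1*, *Jag2*, *Dll4* and *Rbpj*, 6 of 10 genes against 21.1% of all genes (exact two-sided permutation p = 0.1 for each, at the limit of this design). The lowest male and highest female levels were close for *Notch1* (3.40 and 3.38 CPM), *Notch4* (2.02 and 1.96), *Jag1* (0.64 and 0.55) and *Rbpj* (17.97 and 17.3). They were farther apart for *Jag2* (4.84 and 2.93 CPM) and *Dll4* (1.28 and 0.94). WT3 and HET3 are 2 of the 3 female samples in this comparison. Without them, the male term sets HET1 against HET2 alone, and the log2 fold change of *Dll4* was 0.75 (edgeR). Over all male and female WT and HET samples, DESeq2 with apeglm called *Dll4*, at 1.26 (adjusted p = 0.0245).

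Some of these counts carry a limit of annotation. Exons of *Notch1* share 1068 bases with the opposite-strand gene 0610009E02Rik (179 reads in all samples), those of *Notch3* share 488 bases with the antisense gene Gm17276 (57 reads), and those of *Dll4* share 214 bases with the opposite-strand gene Gm14207 (198 reads). Those of *Notch2* share 541 bases with Gm42820 on the same strand (40 reads). The strand setting of the counts is not given in the sources used here, so reads of such pairs are uncertain. *Rbpj* has the pseudogenes Rbpj-ps1 and Rbpj-ps3, with 0 and 182 reads, among which uniquely mapped reads could be split.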

How the data were processed

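The authors deposited raw read counts per gene for the 8 samples, made from 50-bp single-end reads that were trimmed (Trim Galore 0.6.6), aligned to GRCm38 and counted with STAR 2.7.8 for Ensembl genes, uniquely mapped reads only. A deposited table of log2 values corrected for sex was not used. One further KO library was discarded by the authors for sequencing quality. Groups, sex and replicate numbers came from the sample labels. Of 55487 gene IDs, 55141 matched a symbol. Gene positions and exon lengths were those of GENCODE M21 on GRCm38.

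Genes with at least 10 reads summed over the samples were tested with edgeR 4.0.16 in R 4.3.3 (TMM, legacy quasi-likelihood fit, sex and genotype as terms, p-values adjusted by Benjamini-Hochberg), on all 8 samples for KO against WT and HET and on the 6 WT and HET samples for HET against WT and male against female. SE values were the absolute log2 fold change over the root of F. DESeq2 1.42.0 with apeglm 1.24.0 was the alternative. Permutation tests were exact and two-sided and used log2 CPM (prior count 2). The fit was run on counts simulated with known changes, at the estimated and at a lower dispersion. Recovery of the changed genes was required only at the lower dispersion, so this run was no check of power in these data. The 10 genes and all lists were chosen with earlier results of these data known. The genes named were the 10 themselves, *Nfkbia*, per pathway list up to 3 genes with the lowest unadjusted p under 0.05 in KO, those with at most 3 reads in every sample, and the genes of most similar pattern. Other genes of the list of LT-HSC markers were named as definitions. From the hepatocyte and endothelial lists, genes were named as examples that ran against the list's sum. Some genes of these lists entered the counts and sums but are not reported here by name. Samples of a genotype differed by more than sampling noise (chi-square per gene from 18.9 to 261). The methods give 3 mice per genotype. The labels do not say what a replicate number marks. Deviations of same-numbered WT and HET samples from their group means correlated at 0.29, 0.20 and 0.59, the last between WT3 and HET3. Differently numbered samples also correlated, WT2 with HET1 at 0.40 and WT1 with HET2 at 0.23. The remaining combinations ran from -0.49 to -0.27. The numbers were thus not shown to mark pairs, and the replicate block was only an alternative fit.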

Additional observations from a re-analysis of the deposited data

Results flagged for a closer look

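In the 6 WT and HET samples, *Notch3* was highest in WT2, at 3.68 CPM, with the next sample (HET1) at 1.44 CPM, a gap of 0.65 of the whole range. This sample stood far from the others by Dixon's test at the 95% level, which by chance marks about 1 in 20 groups, and 10 genes were examined in this way. No other Notch gene had such a sample.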

How the results depend on the processing

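In KO against WT and HET, edgeR called 0 genes, also with RLE or library-size scaling, at least 10 reads in every sample, no sex term, female samples only, a reference of WT alone or of HET alone, or without WT3 and HET3. DESeq2 called 1463 genes with apeglm and 1825 without shrinkage, edgeR with no filter 1106, and edgeR with the LT-HSC marker sum in place of sex 1. Leaving out 1 sample gave 0 to 703 genes (703 without HET2, whose removal leaves WT3 and HET3 as the only female reference, and 8 without HET1). The 2 Notch genes higher at an unadjusted p under 0.05 became 0 with at least 10 reads in every sample, where HET3 removes *Jag2* and *Dll4*, 0 with no sex term, 0 with WT alone, 0 without WT3 and HET3, 0 with the marker sum and 1 with female samples only, and 0 to 4 with 1 sample left out (4 without HET2, 1 without WT3, HET3 or KO2, 0 without KO1). HET against WT called 0 genes, but 14 with DESeq2 and apeglm, 131 with no filter, 1929 without WT3 and HET3, and 0 to 76 with 1 sample left out (76 without HET2). Male against female called 2 genes, but 1159 with DESeq2 and apeglm (*Dll4* among them), 2154 with no filter (*Jag2* among them), 0 with at least 10 reads in every sample, 34 without WT3 and HET3, and 0 to 2914 with 1 sample left out (2914 without HET2, *Notch1*, *Jag2* and *Dll4* among them, 1404 without HET1, and 0 without WT1 or WT2). Without WT3 and HET3, the male term rested on HET1 against HET2 alone. The causes were not tested where none is given.

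Of the 204 log2 fold changes of the 10 genes in KO under alternatives, 178 kept their direction and side of the threshold, 24 changed sign and 2 (*Jag2* with DESeq2) passed it. With the marker sum in place of sex the sign changed for *Notch1* (-0.66), *Notch2* (0.16), *Notch4* (-0.31), *Jag1* (-0.72), *Dll4* (-0.49) and *Rbpj* (-0.28). *Rbpj* was also negative with apeglm (-0.020), DESeq2 without shrinkage (-0.025), RLE (-0.024), no sex term (-0.17), HET alone (-0.011), female samples only (-0.033) and without WT3 and HET3 (-0.15). *Jag1* was -0.31 with no sex term, *Hes1* -0.26 with WT alone, and *Notch2* 0.028 with library-size scaling. With 1 sample left out, *Notch2* ranged from -0.63 to 0.064, *Notch4* from -0.094 to 0.95 and *Rbpj* from -0.11 to 0.12. In HET against WT, 112 of 134 were kept, 19 changed sign and 3 passed the threshold. *Notch4* was -0.34, *Jag1* -1.19 and *Rbpj* -0.052 with no sex term, and *Notch4* -0.50 and *Jag1* -1.43 without WT3 and HET3. With 1 sample left out, *Notch1* ranged from -2.39 to 0.71, *Notch2* from -0.0054 to 0.38, *Notch3* from -0.86 to 0.67, *Notch4* from -0.50 to 0.71, *Jag1* from -1.43 to 2.07, *Jag2* from -1.10 to 0.44 and *Hey1* from -1.25 to 0.58. In male against female, 112 of 124 were kept, 7 changed sign and 5 passed. *Notch2* was 0.047 without WT3 and HET3, where HET1 is set against HET2 alone. *Hes1* ranged from -1.64 to 0.86 with 1 sample left out.

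With the replicate number as a block, edgeR called 0 genes in KO, 0 in HET and 0 in males against females (2 without the block), and 0 Notch genes were higher in KO at an unadjusted p under 0.05. Under the block the sign changed in KO for *Notch2* (0.040), *Rbpj* (-0.044) and *Hey1* (0.66), in HET for *Hey1* (0.95), and in males for *Notch1* (-1.17), *Notch2* (0.11), *Jag2* (-0.60) and *Hey1* (2.47). The block changed no other adjusted call. In HET against WT, 1 Notch gene (*Notch1*) was lower at an unadjusted p under 0.05 with the block and 0 without it. Deviations of same-numbered KO and other samples from their group means correlated from -0.35 (WT2 and KO2) to 0.28 (WT1 and KO1), so the numbers are not treated as pairs for KO either. Depth limits *Hey1*, at 0 to 21 reads per sample.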
